A study of Mus musculus with 60 samples.

Results

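The 10 genes described here encode proteins of the lipoproteins that the liver secretes, or help to assemble them. They are the apolipoproteins Apoa1, Apoa2, Apoa4, Apoa5, Apob, Apoc1, Apoc3, Apoe and Apom, and Mttp, the transfer protein that loads lipid onto Apob. They were chosen by name, as 10 of the 54343 gene symbols listed in each expression table, and each table held all 10. In liver all 10 reached the level set for testing, which was 1 FPKM in at least 5 of the 15 libraries of a table. In adipose tissue 6 of the 10 did so in one mouse line and 3 of the 10 in the other. FPKM is the number of sequenced fragments scaled to transcript length and to library size, so levels of different genes can be set side by side.

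The study profiled liver and inguinal white adipose tissue of diet-induced obese (DIO) mice by bulk RNA sequencing, with 5 libraries in each of 12 groups. In the first line, Glp1rfl/fl mice, whose gene for the GLP-1 receptor is flanked by recombination sites, received vehicle or mGIPR-Ab/P1, a conjugate of an antibody to the mouse GIP receptor and a peptide, and Glp1rWnt1-/- mice received vehicle. In the second line, Giprfl/fl mice, with the gene for the GIP receptor flanked in the same way, received vehicle or mGIPR-Ab/P1, and GiprSyn-/- mice received vehicle. Every group thus carried floxed alleles or their deletion on an obese background, and no group was lean, wild type or a knockout given the conjugate. The labels name the knockouts by Wnt1 and Syn without describing the cells in which recombination took place, and the sources used here do not state dose, duration, age or sex. The labels call the 5 libraries of a group biological replicates. The series title places the question in the central nervous system, while liver is a peripheral organ. Whether the liver differences arose through the nervous system was not tested. Glp1r did not pass 0.356 FPKM and Gipr did not pass 0.015 FPKM in any liver library, so the liver values could not check the deletions. In adipose tissue of the Gipr line, Gipr was 5.02 to 7.46 FPKM with vehicle and 3.57 to 6.57 FPKM with the conjugate. It was 2.57 to 5.37 FPKM in the GiprSyn-/- group, which overlapped the vehicle range. Whether the deletion had a part in these values was not tested.

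Lipoproteins carry triglyceride and cholesterol through the blood. Hepatocytes build very low density lipoprotein (VLDL) around a single large molecule, apolipoprotein B, which the microsomal triglyceride transfer protein encoded by Mttp fills with lipid in the endoplasmic reticulum. The small exchangeable apolipoproteins move between particles. Apoa1 and Apoa2 are the main proteins of high density lipoprotein (HDL), Apoc1 and Apoc3 restrain lipolysis and uptake, Apoa5 promotes lipolysis of triglyceride, Apoe is the ligand by which receptors clear remnants, and Apom carries sphingosine-1-phosphate on HDL. Apoa4 is best known as an intestinal protein of chylomicrons, and in the mouse liver its transcript is known to rise with hepatic triglyceride.

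In the liver tables the estimated depth ran from 31.7 to 57.3 M (mega) fragments, and in adipose tissue from 29.9 to 64.4 M. The Glp1rfl/fl livers given the conjugate were shallower, at 34.0 ± 1.58 M (SD, n = 5), than the vehicle livers, at 49.9 ± 2.94 M, without overlap. All 6 hepatocyte markers passed 1 FPKM in every liver group, and no difference of the hepatocyte score from vehicle passed (exact permutation test, adjusted p of 0.178 or more over 48 comparisons of marker lists). The erythrocyte score was lower than in the floxed vehicle livers in the Glp1rfl/fl conjugate livers and in the GiprSyn-/- livers. The exact two-sided p was 0.00794 in both, the smallest that 5 libraries against 5 allow, and the adjusted p was 0.0544. Other lists at the same p were the adipocyte list in both of these groups and, in the GiprSyn-/- livers, the enterocyte, lipid-associated macrophage and stellate lists, all lower and read further beside the members below. The erythrocyte score also differed by -0.99 in the Giprfl/fl conjugate livers (exact permutation p = 0.0238, adjusted p = 0.104). The part of these differences in the results below was not tested. In the Gipr line the library numbers in the labels fall into a lower and a higher series, and 3 livers belong to the higher one (Giprfl/fl vehicle replicate 5 and Giprfl/fl mGIPR-Ab/P1 replicates 4 and 5). Transcripts of pancreas acinar cells were present in livers of the Gipr line, with a summed level of 13.7 to 3980 FPKM in the vehicle group, 43.1 to 7066 with the conjugate and 37.8 to 2650 in the knockout.

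The 10 genes together held 8.74 ± 0.334% (SD, n = 5) of the summed FPKM of the Glp1rfl/fl vehicle livers, 8.80 ± 0.868% with the conjugate and 8.06 ± 0.582% in the Glp1rWnt1-/- livers. The shares in the Gipr line were 7.01 ± 1.01% in the vehicle livers, 6.44 ± 1.31% with the conjugate and 5.26 ± 0.490% in the GiprSyn-/- livers. Apoe led the order in the Glp1r line in all 15 livers, at group means of 18997 to 19590 FPKM, with Apoa2 next at 13235 to 14228 FPKM. Apoc1 and Apoa1 followed and could not be ordered there, since Apoc1 was the higher in 2, 4 and 3 of 5 livers of the vehicle, conjugate and knockout groups. Apoa2 had the highest mean of the Gipr line in all 3 groups, above Apoe in 4 of 5 vehicle livers, 3 of 5 conjugate livers and 5 of 5 knockout livers. Apoc3 was the fifth in all 6 groups. Apob, Mttp and Apom, with means of 68.0 to 371 FPKM, lay below Apoa5 in each group apart from the GiprSyn-/- livers, where Apoa5 at 367 ± 51.3 FPKM and Apob at 368 ± 31.4 FPKM were level.

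**Figure D1:**
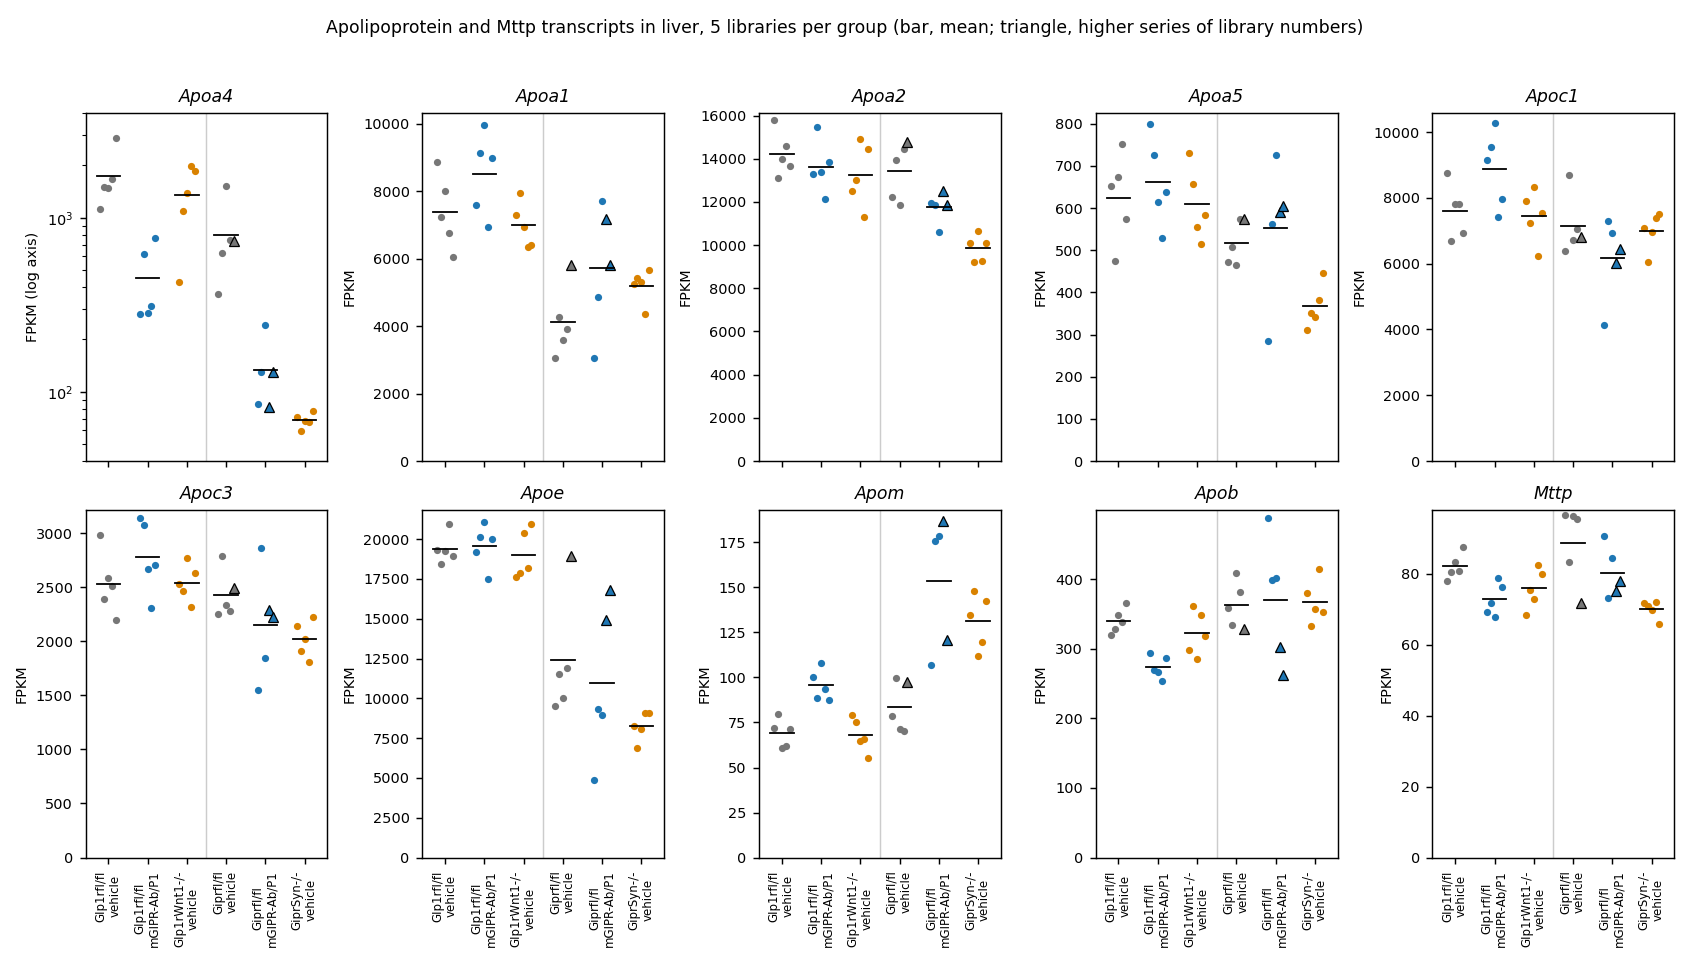
FPKM of the 10 genes in each of the 30 liver libraries, 1 panel a gene and 1 column a group, with the group mean as a line; the Apoa4 axis is logarithmic, and triangles mark the 3 livers of the higher series of library numbers. The Apoa4 values of both conjugate groups and of the GiprSyn-/- group lie below those of their vehicle groups, and the Apom values of these groups lie above them.

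The places of Apoa4 and Apom in this order changed with the groups. Apoa4 stood sixth in both vehicle groups and in the Glp1rWnt1-/- livers, seventh in the Glp1rfl/fl conjugate livers, ninth in the Giprfl/fl conjugate livers and last in the GiprSyn-/- livers. Among all genes of the table its rank by mean went from 49 to 146 with the conjugate in the Glp1r line, and from 85 to 525 with the conjugate and 855 in the knockout in the Gipr line. Apom lay below Mttp by mean in both vehicle groups and in the Glp1rWnt1-/- livers. It lay above Mttp in 5 of 5 livers of the Glp1rfl/fl conjugate group and of the GiprSyn-/- group. In the Giprfl/fl conjugate livers Apom also ranked above Apoa4 by mean, in 3 of 5 livers.

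Each treated or knockout group was compared with its line's floxed vehicle group by limma on log2(FPKM + 1). A call means an adjusted p (Benjamini-Hochberg, over all genes tested) under 0.05. In the Glp1rfl/fl livers given mGIPR-Ab/P1, 3 of the 10 genes were called, where 10.4% of all genes were (5.68% higher and 4.69% lower): Apom rose and Apoa4 and Apob fell. In the Glp1rWnt1-/- livers 0 of the 10 were called by limma, and 0% of all genes, while 1048 of 10858 genes had an unadjusted p under 0.05, none of the 10 among them. In the Giprfl/fl livers given mGIPR-Ab/P1, 2 of the 10 were called against 4.34% of all genes (1.17% higher and 3.17% lower): Apom rose and Apoa4 fell. In the GiprSyn-/- livers 4 of the 10 were called against 10.4% of all genes (1.44% higher and 8.92% lower): Apom rose, and Apoa4, Apoa2 and Mttp fell. The median log2 fold change of the 10 was 0.05, -0.05, -0.16 and -0.30 in the order given, beside medians over all genes of 0.01, -0.04, -0.03 and -0.11. With the conjugate in the Glp1r line the values of the groups were fully separated in 1 of the 10 genes for higher and 2 for lower values, beside 5.14% and 4.02% of all genes, and with the conjugate in the Gipr line in 1 and 1, beside 1.36% and 3.57%. Both contrasts of a line share its vehicle livers, so their fold changes are not independent of each other. In the bulk tissue fewer cells of a type and less RNA per cell cannot be told apart.

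**Figure D2:**
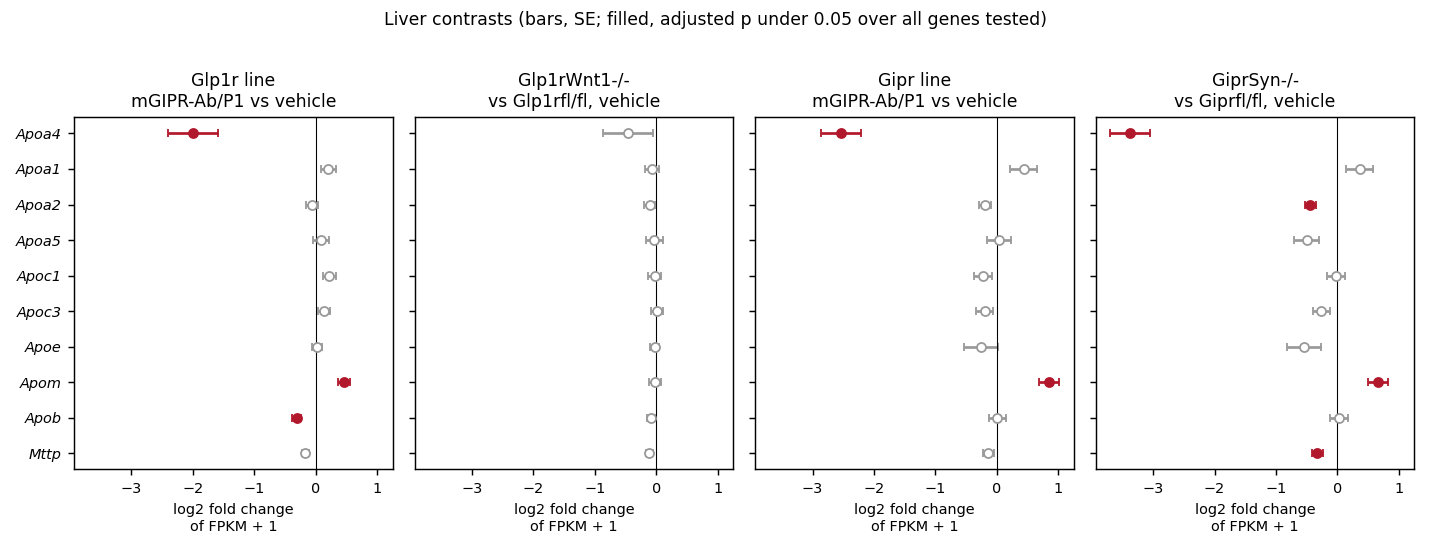
Log2 fold change ± SE of the 10 genes against floxed vehicle livers, for the conjugate and the knockout of each line; filled points have an adjusted p under 0.05. Apoa4 lies lowest in all 4 contrasts, at -0.46 in the Glp1rWnt1-/- livers and from -2.0 to -3.37 in the other 3. Apom lies highest in those 3, from 0.46 to 0.85.

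Apoa4 had the largest change of the 10 in each contrast with calls. Its levels in the 5 Glp1rfl/fl vehicle livers were 1127, 1505, 1473, 1678 and 2867 FPKM. With the conjugate they were 279, 621, 285, 311 and 765 FPKM, all below the lowest vehicle liver. The fitted log2 fold change was -2.0 ± 0.40 (SE), or 0.251 times the vehicle level (limma adjusted p = 0.0096). The Glp1rWnt1-/- livers held 430, 1099, 1385, 1986 and 1866 FPKM, of which 3 lay within the vehicle range and 2 below it, and the difference of -0.46 ± 0.40 did not pass (adjusted p = 0.759, 95% interval -1.32 to 0.40).

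In the Giprfl/fl vehicle livers Apoa4 stood at 367, 626, 1521, 745 and 733 FPKM. The conjugate livers held 85.3, 129, 243, 81.8 and 130 FPKM, and the groups did not overlap. The log2 fold change was -2.53 ± 0.32, or 0.173 times the vehicle level (adjusted p = 0.0021). The 5 GiprSyn-/- livers held 71.4, 59.3, 68.0, 67.1 and 77.4 FPKM, each below every conjugate liver of that line. Against vehicle the change was -3.37 ± 0.32, or 0.0965 times (adjusted p = 2.87e-05). The knockout livers lay close together, with an SD of 9.65% of their mean, against 54.1% in the vehicle livers and 48.6% in the conjugate livers.

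The promoter of Apoa4 is shown because this gene moved most, and that of Apom because it rose in the same contrasts. Both are the 250 bases before the transcription start in RefSeq (mouse build GRCm38.p6), 5′ to 3′ on the strand of the gene. The authors' own build is not given in the sources used here, and no expression value was read by these coordinates. Apoa4 lies on the plus strand at chr9:46240594-46240843 and Apom on the minus strand at chr17:35131802-35132051. Capitals mark matches to the motifs named after the sequences.

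Apoa4: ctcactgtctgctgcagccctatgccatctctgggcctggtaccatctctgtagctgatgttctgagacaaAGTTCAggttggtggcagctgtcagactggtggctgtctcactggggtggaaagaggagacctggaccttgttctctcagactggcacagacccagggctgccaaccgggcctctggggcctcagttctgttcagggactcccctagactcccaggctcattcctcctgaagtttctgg

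Apom: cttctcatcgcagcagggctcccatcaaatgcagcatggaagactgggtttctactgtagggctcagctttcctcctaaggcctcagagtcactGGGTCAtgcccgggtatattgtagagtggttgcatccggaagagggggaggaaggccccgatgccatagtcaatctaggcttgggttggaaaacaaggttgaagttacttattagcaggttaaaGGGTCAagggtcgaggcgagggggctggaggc

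The motifs searched on both strands were TATAAA (the core promoter box of that name), CCAAT (the box bound by NF-Y), AGGTCA (a core of many nuclear receptor sites), AGTCCA (a variant found in Hnf4a sites), TGACG (part of the cyclic AMP response element) and TGTTTAC (the core of forkhead factor sites), and matches of different motifs may overlap. None of these letters occurred in either window. They occurred in 12.4%, 33.8%, 14.02%, 11.5%, 17.8% and 3.17% of the 32851 promoter windows of the same table. After the sequences were read, GGGTCA (a variant of AGGTCA with its first letter changed) and also AGTTCA (a variant with another letter changed) were added. The Apoa4 window holds AGTTCA with its first base 179 bases before the start, and the Apom window holds GGGTCA at 156 and at 32 bases before it. These letters were in 11.8% (AGTTCA) and 11.6% (GGGTCA) of all windows. Among the other members, AGTTCA was also in a window of Apoa1, and GGGTCA in windows of Apoa5 and Apoe. None of these genes was called against vehicle in liver. The table held windows for 8 of the 10 genes, without Apoc1 and Apoc3. On chromosome 9 Apoa4 is one of 4 neighbouring members, in the order Apoa1, Apoc3, Apoa4 and Apoa5. None of its 3 neighbours was called in any of the 4 contrasts against vehicle.

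Apom was the only 1 of the 10 to rise in any of these contrasts. The Glp1rfl/fl vehicle livers held 72.1, 79.5, 61.1, 62.2 and 71.1 FPKM of Apom, and the conjugate livers 100.3, 88.8, 107.9, 93.4 and 87.5 FPKM. Every conjugate liver was above every vehicle liver, at a log2 fold change of 0.46 ± 0.10, or 1.38 times (adjusted p = 0.0117). In the Glp1rWnt1-/- livers the values of 79.0, 75.2, 65.0, 65.9 and 55.0 FPKM overlapped those of vehicle (-0.03 ± 0.10, adjusted p = 0.951).

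Vehicle livers of the Gipr line held 78.6, 99.9, 71.5, 70.0 and 97.6 FPKM of Apom. With the conjugate the level was 107.0, 175.5, 178.6, 186.7 and 121.0 FPKM, and in the GiprSyn-/- livers 134.6, 148.2, 111.7, 119.5 and 142.5 FPKM. Both groups were above vehicle without overlap. The changes were 0.85 ± 0.16, or 1.81 times, with the conjugate (adjusted p = 0.012), and 0.65 ± 0.16, or 1.57 times, in the knockout (adjusted p = 0.0182). The knockout call was lost without GiprSyn-/- replicate 2, Giprfl/fl vehicle replicate 3 or Giprfl/fl vehicle replicate 4, at adjusted p of 0.0547 to 0.0569.

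Apob and Mttp, the scaffold of VLDL and the protein that lipidates it, were each called in 1 of the 4 contrasts, Apob with the conjugate in the Glp1r line and Mttp in the GiprSyn-/- livers. Apob in the Glp1rfl/fl vehicle livers was 319, 329, 348, 338 and 365 FPKM, and with the conjugate 294, 269, 267, 254 and 286 FPKM. The groups did not overlap, and the change of -0.31 ± 0.07, or 0.806 times, was called (adjusted p = 0.0134). In the Glp1rWnt1-/- livers Apob was 322 ± 32.5 FPKM (SD, n = 5), with a difference of -0.08 ± 0.07 (adjusted p = 0.752). Giprfl/fl vehicle livers held 358, 334, 408, 381 and 329 FPKM of Apob, and conjugate livers 488, 398, 401, 303 and 263 FPKM, on both sides of the vehicle range. The difference was 0.00 ± 0.14 with a 95% interval of -0.30 to 0.31. Apob in the GiprSyn-/- livers was 368 ± 31.4 FPKM and differed by 0.02 ± 0.14. The 3 livers of the higher series of library numbers had the 3 lowest Apob values of the Gipr line, at 263 to 329 FPKM against 333 to 488 FPKM in the other 12. Whether the series had a part in the Apob values was not tested beyond a fit with the series as a term, in which the conjugate difference was 0.09 ± 0.10 (adjusted p = 0.658).

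Mttp was 78.0, 80.5, 83.4, 80.9 and 87.6 FPKM in the Glp1rfl/fl vehicle livers and 69.2, 71.7, 67.7, 78.9 and 76.3 FPKM with the conjugate. Only 1 conjugate liver, replicate 4, was above the lowest vehicle liver, and the difference of -0.17 ± 0.06 did not pass (adjusted p = 0.0714). It passed at about the same size with array weights (-0.17, adjusted p = 0.0402), under median-of-ratios scaling (-0.19, adjusted p = 0.0317) and with a replicate block (-0.17, adjusted p = 0.0328). The Glp1rWnt1-/- livers held 75.9 ± 5.56 FPKM (SD, n = 5), a difference of -0.11 ± 0.06 (adjusted p = 0.556). Mttp in the Gipr line was 96.6, 83.3, 96.4, 95.5 and 71.8 FPKM with vehicle and 90.5, 73.2, 84.4, 75.2 and 78.1 FPKM with the conjugate (-0.14 ± 0.09, adjusted p = 0.433). The GiprSyn-/- livers lay within 65.9 to 72.1 FPKM, and 4 of the 5 vehicle livers were above all of them. That fall of -0.33 ± 0.09, or 0.797 times, was called at an adjusted p of 0.0297, and it is among the least stable calls here. It was lost when any of GiprSyn-/- replicates 1, 2, 3 or 4 or of Giprfl/fl vehicle replicates 1, 3 or 4 was left out, at adjusted p of 0.0539 to 0.0846, and after quantile normalization (-0.18, adjusted p = 0.524).

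Of the 2 main HDL proteins, Apoa2 fell in the GiprSyn-/- livers. Its levels there were 10091, 9231, 10645, 9277 and 10109 FPKM, all below the vehicle levels of 12224, 13964, 11841, 14438 and 14763 FPKM. The log2 fold change was -0.44 ± 0.09, or 0.736 times (adjusted p = 0.0076), and without the filter on low values, at the same fold change, the call was lost (adjusted p = 0.273). The Giprfl/fl conjugate livers, at 11969, 11845, 10588, 12500 and 11857 FPKM, lay between the other 2 groups, with -0.19 ± 0.09 against vehicle (adjusted p = 0.277). In the Glp1r line Apoa2 ranged from 11286 to 15790 FPKM over all 15 livers and differed by -0.06 ± 0.09 with the conjugate and -0.11 ± 0.09 in the knockout, neither of them called.

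Apoa1 was not called in any of these contrasts. It was 7378 ± 1092 FPKM in the Glp1rfl/fl vehicle livers (SD, n = 5), 8513 ± 1232 with the conjugate (log2 difference 0.21 ± 0.12, adjusted p = 0.279) and 6982 ± 660 in the knockout. The Giprfl/fl vehicle livers held 3065, 4266, 3575, 3910 and 5816 FPKM and the conjugate livers 3061, 4870, 7715, 7168 and 5817 FPKM, with a difference of 0.43 ± 0.22 (adjusted p = 0.299). Without conjugate replicate 1, which had the lowest Apoa1 of all 30 livers, the difference was 0.64 and passed at an adjusted p of 0.0458. That liver was also the lowest of its group in Apoa5, Apoc1, Apoc3, Apoe and Apom and the highest in Apob.

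Apoa5 and Apoc3, which act on triglyceride lipolysis in opposite directions, did not pass in any contrast against vehicle in the main analysis. Apoa5 in the GiprSyn-/- livers was 311, 352, 341, 382 and 446 FPKM, all below the vehicle levels of 464 to 575 FPKM, yet the difference of -0.50 ± 0.20 had an adjusted p of 0.125. It passed with array weights (-0.59, adjusted p = 0.00116) and in a fit of the 2 groups only (-0.50, adjusted p = 0.0116). Apoc3 was 1805 to 2227 FPKM there against 2253 to 2791 FPKM with vehicle, again without overlap, at -0.27 ± 0.14 (adjusted p = 0.261). In that contrast 5 of the 10 genes were lower without overlap (Apoa2, Apoa4, Apoa5, Apoc3 and Apoe) and 1 was higher (Apom), where 10.6% of all genes were lower without overlap and 1.74% higher. In the Glp1r line Apoa5 averaged 609 to 661 FPKM and Apoc3 2532 to 2778 FPKM over the 3 groups, and their differences from vehicle lay between -0.03 and 0.13.

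Apoe is the remnant ligand, and its levels are given by line, since the 2 lines come from separately made tables. In the Glp1r line its 15 livers lay between 17499 and 21050 FPKM, with differences of 0.02 ± 0.08 with the conjugate and -0.03 ± 0.08 in the knockout. The Giprfl/fl vehicle livers held 9537, 11541, 10038, 11935 and 18913 FPKM, the conjugate livers 4899, 9351, 8939, 14948 and 16807 FPKM, and the GiprSyn-/- livers 8273, 6857, 8100, 9063 and 9103 FPKM. The knockout livers were all below vehicle, but the difference of -0.54 ± 0.28 did not pass (adjusted p = 0.256), other than with array weights (-0.55, adjusted p = 0.0351). The 3 livers of the higher series of library numbers held the 3 highest values, 14948 to 18913 FPKM, against 4899 to 11935 FPKM in the other 12. With the series as a term the knockout difference was -0.35 ± 0.17 (adjusted p = 0.228) and the conjugate difference -0.45 ± 0.17 (adjusted p = 0.127), where without it the conjugate difference was -0.26 ± 0.28 (adjusted p = 0.692). Apoa4 and Apom were called in both contrasts with the series as a term, at -2.48 and 0.83 for the conjugate and -3.42 and 0.68 for the knockout.

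Apoc1, the neighbour of Apoe on chromosome 7, was 7596 ± 817 FPKM in the Glp1rfl/fl vehicle livers (SD, n = 5), 8872 ± 1163 with the conjugate and 7446 ± 793 in the knockout. Its level in the Gipr line was 7135 ± 908 FPKM with vehicle and 6997 ± 577 in the knockout, and the conjugate livers held 4144, 7289, 6918, 6023 and 6458 FPKM. The largest of the 4 differences was -0.23 ± 0.14 (adjusted p = 0.411), with the conjugate in the Gipr line.

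Conjugate-treated floxed livers were also set directly against the untreated knockout livers of the same line. In the Glp1r line 2 of the 10 genes were called against 5.04% of all genes. Apoa4 was lower with the conjugate than in the Glp1rWnt1-/- livers by 1.54 ± 0.40 on the log2 scale (adjusted p = 0.042), although 1 knockout liver at 430 FPKM lay within the conjugate range. That call was lost in 12 of 22 alternative analyses, among them those without conjugate replicates 1, 3 or 4 or knockout replicates 2, 3, 4 or 5 (adjusted p of 0.0616 to 0.101). Apom was higher by 0.49 ± 0.10 (adjusted p = 0.017), the 1 member without overlap, beside 4.58% of all genes higher without overlap. Apob, not called there in the main analysis, was called lower with the conjugate under median-of-ratios scaling (-0.29, adjusted p = 0.0295) and array weights (-0.26, adjusted p = 0.0427). It was also called with a filter at 5 FPKM (-0.23, adjusted p = 0.0486), after quantile normalization (-0.27, adjusted p = 0.0435) and without knockout replicate 3 (-0.27, adjusted p = 0.0485). Of the 10, 0 were called by limma in the Gipr line against 1.31% of all genes, with 3 at an unadjusted p under 0.05. Apoa4 was higher with the conjugate than in the GiprSyn-/- livers in every pair of livers, 1 of 2 members without overlap beside 3.67% of all genes, at a log2 difference of 0.84 ± 0.32 that did not pass (adjusted p = 0.22).

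Whether the effects differed between the lines was tested over the 30 livers in 1 fit. For the conjugate, 0 of the 10 genes and 0% of all 11549 genes were called by limma, and 1 of the 10, Apoc1, had an unadjusted p under 0.05 (-0.45 ± 0.18, adjusted p = 0.839). The Apoa4 effect was 0.53 ± 0.54 lower on the log2 scale in the Gipr line, written as a difference of -0.53 with a 95% interval of -1.65 to 0.58, and the Apob effect differed by 0.31 ± 0.16 (adjusted p = 0.878). The fall of Apob with the conjugate was therefore not shown to be particular to the Glp1r line. For the knockouts 1 of the 10 was called against 0.658% of all genes. The Apoa4 change in the GiprSyn-/- livers exceeded that in the Glp1rWnt1-/- livers by a log2 difference of -2.91 ± 0.54 (adjusted p = 0.0095, 95% interval -4.03 to -1.80). Apom differed by 0.68 ± 0.20, which did not pass (adjusted p = 0.111). The 2 knockouts differ in the gene and in the name of the driver, and these cannot be told apart.

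Depth and the marker lists of blood and other cells moved with some of these groups. In the Glp1r line the conjugate livers were the shallow ones, and with estimated depth as a term none of the 10 genes was called (Apoa4 -4.18, adjusted p = 0.291, Apob -0.30, adjusted p = 0.619, Apom 0.58, adjusted p = 0.487), and 0 of all genes were, with 1262 at an unadjusted p under 0.05. Every conjugate liver there had at most 35.5 M and every other liver at least 44.2 M, so depth and the conjugate cannot be told apart. The loss of calls with that term, at an SE of 1.13 for Apoa4, therefore decides nothing. With the pancreas score as a term Apoa4, Apob and Apom were -1.33, -0.25 and 0.40, beside -2.0, -0.31 and 0.46 without it, at adjusted p of 0.0535, 0.0669 and 0.0535, although 8 of the 9 pancreas genes were under 0.1 FPKM in every group of that line. In the Gipr line, where the depths of the groups overlap, Apoa4 and Apom with the conjugate were called under all 24 alternatives.

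Because Apoa4 is abundant in gut, enterocyte markers were read beside it. Of 6, 1 reached 1 FPKM in liver, Fabp2, which liver also expresses, and Sis, which defines the enterocyte brush border, was listed at 0 in all 30 livers. The summed list followed Apoa4 in direction, at 169 to 215 FPKM in the Glp1rfl/fl vehicle livers and 92.1 to 178 with the conjugate, and at 164 to 195, 81.8 to 183 and 80.6 to 98.7 FPKM in the vehicle, conjugate and knockout livers of the Gipr line. The adipocyte list, of which 4 of 6 genes were under 0.1 FPKM in the Glp1r line, was 42.7 to 73.3 FPKM with vehicle and 10.03 to 39.6 FPKM with the conjugate (exact p = 0.00794, adjusted p = 0.0544). The same list was 40.9 to 106.6, 10.1 to 45.5 and 10.9 to 18.9 FPKM in the vehicle, conjugate and knockout livers of the Gipr line. Adipoq, an adipocyte gene of that list, did not fall with the conjugate by mean, but its median fell in the Gipr line. Its means were 0.00968 FPKM with vehicle and 0.0198 FPKM with the conjugate in the Glp1r line, with 3 and 2 livers at 0. In the Gipr line the means were 0.830, 1.19 and 0.583 FPKM in the vehicle, conjugate and knockout livers. The medians there were 0.93, 0.251 and 0.401 FPKM, and the highest conjugate liver held 3.36 FPKM. The list also holds Cidec, named below among the genes most like Apoa4. The erythrocyte list was 1016 to 1522 FPKM with vehicle and 475 to 889 FPKM with the conjugate in the Glp1r line, with all 5 of 5 genes above 1 FPKM, and 993 to 1678, 406 to 1170 and 634 to 859 FPKM in the Gipr line. In the GiprSyn-/- livers the lipid-associated macrophage list was 31.5 to 39.96 FPKM, with 3 of 6 genes above 1 FPKM, against 44.8 to 116 FPKM with vehicle, a score difference of -0.93. The stellate list was 93.4 to 123 FPKM there, with 4 of 5 genes above 1 FPKM, against 104.8 to 157 FPKM with vehicle, a score difference of -0.37. Both had an exact p of 0.00794 and an adjusted p of 0.0544 (exact permutation test). The part of these transcripts in the values of the 10 genes was not tested.

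Scaling mattered most for the GiprSyn-/- contrast, in which 161 genes were called higher and 999 lower. Under median-of-ratios scaling 265 were higher and 491 lower, and the median of all genes moved from -0.11 to 0.00. Apoa4 (-3.24) and Apom (0.79) were called under that scaling. Apoa2 at -0.31 (adjusted p = 0.129) and Mttp at -0.20 (adjusted p = 0.357) were not. The splits for the conjugate were 617 higher and 509 lower in the Glp1r line, or 336 and 469 with each library rescaled to a common sum, and 131 and 355 in the Gipr line, or 181 and 255 after quantile normalization.

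Genes that work beside the 10 were read as 6 lists. Of the other apolipoproteins, 9 of 10 were tested, and Apoc2, the activator of lipoprotein lipase, fell with Apoa4 in 3 contrasts. It went from 574 ± 131 to 364 ± 47.1 FPKM (SD, n = 5) with the conjugate in the Glp1r line (-0.64 ± 0.16, adjusted p = 0.0211), and from 587 ± 155 to 283 ± 82.3 with the conjugate and 227 ± 15.8 in the knockout in the Gipr line (-1.06 ± 0.19 and -1.33 ± 0.19, adjusted p of 0.0079 and 0.000426), without overlap. The Glp1r-line call was lost without conjugate replicate 1 (adjusted p = 0.0542). The Glp1r line had no other call in this list. Apon and Saa2 also fell in both contrasts of the Gipr line, so 3 of 9 fell and 0 rose in each. Apon changed by -0.49 ± 0.11 and -0.41 ± 0.11. Saa2, an acute phase apolipoprotein near-identical to Saa1 and thus uncertain in its share of reads, changed by -2.03 ± 0.51 and -1.98 ± 0.51. Leaving out 1 library ended the call of Apon at adjusted p up to 0.0716 (conjugate replicates 2, 3 and 4 and vehicle 2 and 3) and 0.0674 (knockout 2, 3 and 4 and vehicle 2 and 3). It ended that of Saa2 at adjusted p up to 0.113 (conjugate 2 and 4 and vehicle 2, 3, 4 and 5) and 0.0675 (knockout 1 and 2 and vehicle 3, 4 and 5).

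Of 17 genes tested for VLDL assembly and secretion, 0 rose and 2 fell with the conjugate in the Glp1r line: Ces1g, a carboxylesterase (-0.49 ± 0.13), and P4hb, the subunit that holds Mttp soluble (-0.39 ± 0.08, from 560 ± 68.7 to 426 ± 40.4 FPKM). With the conjugate in the Gipr line 0 of 17 were called by limma. Of the same 17, 5 fell and 1 rose in the GiprSyn-/- livers. Tm6sf2, needed for the lipidation of VLDL, fell from 14.2 ± 1.65 to 5.44 ± 1.36 FPKM (-1.25 ± 0.17, adjusted p = 0.000362) and Cideb, which takes part in loading VLDL, from 206 ± 19.1 to 157 ± 10.2 FPKM (-0.39 ± 0.08). Sort1, a sorting receptor that binds Apob, rose from 1.67 ± 0.231 to 4.36 ± 0.638 FPKM (1.0 ± 0.18, adjusted p = 0.0022). The other genes that fell were Ces1g (-0.66 ± 0.19), Lpcat3 and Smlr1, the last 2 named outside the rule for named genes. The calls of Ces1g were lost without conjugate replicate 5 or vehicle 2, 4 or 5 in the Glp1r line, and without knockout 1, 2, 3 or 4 or vehicle 1, 4 or 5 in the Gipr line, at adjusted p up to 0.0758 and 0.0992. Lpcat3 and Smlr1 were lost without any of 9 and of 8 of the 10 libraries, which left Tm6sf2, Cideb and Sort1 called without any 1 of them. Over all alternatives Cideb was lost in 2 of 24, Tm6sf2 in 0 of 24 and Sort1 in 0 of 23. Of 3 genes for the editing of Apob transcripts, 0 were called in any of the 4 contrasts.

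Among the 12 tested receptors and uptake genes, Cd36, the fatty acid translocase, fell with the conjugate in both lines and in the GiprSyn-/- livers, where it went from 81.9 ± 24.8 to 19.5 ± 4.33 FPKM (-1.99 ± 0.22). Over the list 2, 0, 1 and 4 of 12 fell and 0 rose with the Glp1r-line conjugate, the Wnt1 knockout, the Gipr-line conjugate and the Syn knockout. The GiprSyn-/- count includes Vldlr, which fell from 2.03 ± 0.140 to 0.507 ± 0.161 FPKM (-1.02 ± 0.09), and Sdc1 (-0.67 ± 0.17), whose call was lost without knockout replicate 2 (adjusted p = 0.0531).

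Of the genes that remodel lipoproteins in plasma, 13 were tested in the Glp1r line and 14 in the Gipr line. With the conjugate in the Glp1r line 3 rose and 1 fell. Lipc, hepatic lipase, rose by 0.44 ± 0.10, Gpihbp1 by 0.34 ± 0.10 and Lcat, which esterifies cholesterol on HDL, by 0.27 ± 0.08, and Pltp, the phospholipid transfer protein, went from 40.9 ± 7.11 to 14.98 ± 4.41 FPKM (-1.42 ± 0.23). Of the 14 in the Gipr line 0 were called by limma with the conjugate, and in the knockout 0 rose and 2 fell, among them Lipg, endothelial lipase (-0.74 ± 0.16). Lipc and Pltp were called without any 1 library. Gpihbp1 was not without conjugate 1, 3, 4 or 5 or vehicle 1, 2, 4 or 5 (adjusted p up to 0.0997), nor was Lcat without conjugate 1, 3 or 4 or vehicle 2, 3, 4 or 5 (up to 0.0875).

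Among 29 transcription regulators, 6 rose and 1 fell with the conjugate in the Glp1r line. The 4 with the largest change were Mlxipl, the carbohydrate response factor (0.52 ± 0.08), Xbp1 (0.36 ± 0.10), Srebf2, the sterol response factor, which fell (-0.36 ± 0.09), and Nr2f6 (0.27 ± 0.06). In the Gipr line 0 of 29 were called by limma with the conjugate, and in the knockout Xbp1 rose (0.62 ± 0.15) and Ppara, the fatty acid sensor, fell (-0.47 ± 0.12, adjusted p = 0.0221). Mlxipl and Nr2f6, and Xbp1 in the knockout, were called without any 1 library. The Glp1r-line call of Xbp1 was lost without all but conjugate replicate 2 of the 10 libraries, each left out in turn (adjusted p up to 0.0972), and Srebf2 without conjugate 1, 3 or 4 or vehicle 2 (up to 0.0799). Ppara was lost without knockout 2 or 3 or vehicle 4 (up to 0.0636). Hnf4a, which drives many apolipoprotein genes, and Creb3l3, a factor of Apoa4 transcription, were not called in any of the 4 contrasts, with differences of 0.03 to 0.27 and of -0.19 to 0.10. In the Glp1rWnt1-/- livers 0 genes of any of the 6 lists were called by limma. The lists together had 16 calls of 83 genes, 0 of 83, 4 of 84 and 17 of 84 in the 4 contrasts, beside 10.4%, 0%, 4.34% and 10.4% of all genes, so that the 4 of 84 lie near the share of all genes. The 16 fell to 0 with estimated depth as a term, which cannot be told apart from the conjugate in that line.

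**Figure D3:**
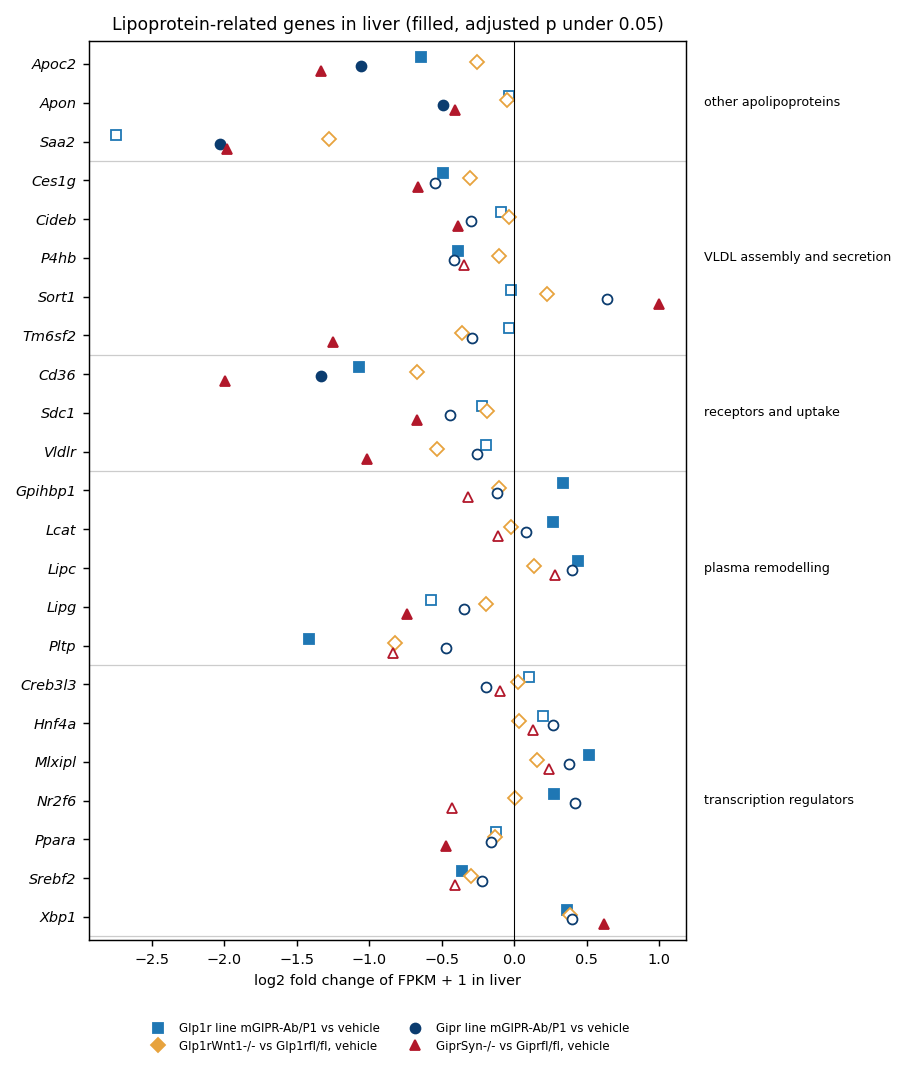
Log2 fold change against floxed vehicle of related genes named in the text, by list, in the 4 liver contrasts; filled points have an adjusted p under 0.05. Apoc2 and Cd36 lie to the left in both conjugate contrasts and in the GiprSyn-/- contrast, and Sort1 lies to the right in the GiprSyn-/- contrast.

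The genes whose pattern over the 30 livers was most like that of a member were ranked by Pearson correlation of log2(FPKM + 1), centred within each table, among 6091 genes. The correlations include the differences between groups and the library properties shared by all genes, so they describe likeness only. For Apoa4 the highest were Gpx4 (0.96), Apoc2 (0.96), Cidec (0.93) and Lgals1 (0.93). For Apoa1 they were Fbxo31 (0.83), Cxxc1 (0.83), Rab3ip (0.82), Brpf3 (0.81) and Igfbp2 (0.81). For Apob they were Ubr3 (0.88), Arfgef1 (0.84), Trip12 (0.81), Zyg11b (0.80) and Cse1l (0.80), and for Mttp they were Elovl6 (0.86), Gpd2 (0.86), Slc39a9 (0.84), Gbe1 (0.84) and Tmem135 (0.83). By Spearman correlation 3 of the 5 for Apoa4, 4 for Apoa1 and 2 for Mttp were again among the top 5. Among the 10 members themselves the highest values were 0.71 for Apoa1 with Apom and 0.70 for Apoa4 with Mttp, and the lowest was -0.74 for Apoa4 with Apom.

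In inguinal adipose tissue the 10 genes held 0.199 to 0.501% of the summed FPKM by group, and nearly all of it was Apoe. The levels of Apoe there were 1666 ± 338 FPKM in the Glp1rfl/fl vehicle group (SD, n = 5) and 867 ± 168 in the Giprfl/fl vehicle group. Apoc1 followed at group means of 68.0 to 124 FPKM, and Mttp lay at 0.880 to 1.18 FPKM. The mean of every other member was at most 19.8 FPKM in the Glp1r line and at most 0.664 FPKM in the Gipr line.

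Apoe rose in the Giprfl/fl adipose tissue given mGIPR-Ab/P1, the 1 of 3 tested members called, where 7.02% of all genes were called. The vehicle libraries held 958, 671, 858, 754 and 1097 FPKM and the conjugate libraries 1929, 1637, 1706, 1684 and 3468 FPKM, without overlap, as in 7.51% of all genes on the higher side. The log2 fold change was 1.22 ± 0.32 (adjusted p = 0.0354). The call was lost in 9 of the 10 analyses that left out 1 library of either group, all but that of conjugate replicate 2, at adjusted p of 0.0516 to 0.0900, and the direction held in each. It was also lost under median-of-ratios scaling (1.14, adjusted p = 0.0503) and with no filter (1.22, adjusted p = 0.0828). Without the 2 adipose libraries of the higher number series, conjugate replicate 5 and GiprSyn-/- replicate 5, it was 1.02 (adjusted p = 0.0483). In the GiprSyn-/- adipose tissue Apoe was 1181, 2391, 1818, 813 and 3106 FPKM, in part within the vehicle range, and 0.97 ± 0.32 did not pass (adjusted p = 0.0625). The same difference passed with a replicate block (0.97, adjusted p = 0.0259), with array weights (1.05, adjusted p = 0.0055) and without knockout replicate 4 (1.22, adjusted p = 0.0153). In the main analysis 0 of 3 members were called by limma against 12.3% of all genes, with 1 at an unadjusted p under 0.05. In the Glp1r line 0 of 6 were called by limma with the conjugate against 3.39% of all genes, with 1 at an unadjusted p under 0.05. That was Apoe, at 1667, 2165, 1777, 1295 and 1424 FPKM with vehicle and 2402, 1975, 2356, 2416 and 2767 FPKM with the conjugate (0.53 ± 0.17, adjusted p = 0.0941). In the Glp1rWnt1-/- adipose tissue 0 of 6 were called by limma, 0 at an unadjusted p under 0.05, and 0% of all genes were called. The difference of the Apoe effect of the conjugate between the lines did not pass (0.69 ± 0.37, adjusted p = 0.887, 95% interval -0.06 to 1.44).

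Marker lists of other cells were read beside Apoe in adipose tissue, since macrophages are known to express it, and none of their differences from vehicle passed after adjustment (adjusted p of 0.127 or more). With the conjugate in the Gipr line the macrophage list, all 5 of 5 genes above 1 FPKM, was 705 to 995 FPKM against 630 to 1158 with vehicle. The lipid-associated macrophage list, which includes Lpl, an adipocyte transcript too, was 1123 to 2191 FPKM with the conjugate and 1174 to 2466 FPKM in the GiprSyn-/- group against 2794 to 3206 FPKM with vehicle, all 6 of 6 genes being above 1 FPKM. Its score differed by -1.41 in the knockout (exact p = 0.00794, adjusted p = 0.127). The Kupffer list, with 3 or 4 of 5 genes above 1 FPKM by group and its defining gene Clec4f under 0.1 FPKM, was 13.2 to 85.2 FPKM with the conjugate and 23.3 to 135 FPKM in the knockout against 5.15 to 21.4 FPKM with vehicle, at score differences of 0.70 and 1.09 (exact p of 0.0317 and 0.0159, adjusted p of 0.218 and 0.190). The stellate list had a score difference of 0.26 with the conjugate (exact p = 0.0317, adjusted p = 0.218). The B cell list, with all 5 genes above 1 FPKM, differed by 1.77 with the conjugate (exact p = 0.111, adjusted p = 0.533) and 2.86 in the knockout (exact p = 0.0317, adjusted p = 0.218). The part of these cells in the Apoe values was not tested.

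Apoa1, Apoa2 and Apoc3 reached 1 FPKM in enough adipose libraries of the Glp1r line to be tested, and their high values lay in 3 libraries that also held liver transcripts. In Glp1rfl/fl vehicle replicate 1 the hepatocyte score, the mean log2(FPKM + 1) of 6 markers, was 4.0, and Apoa1 stood at 56.0 FPKM and Apoa2 at 90.01 FPKM. The scores of Glp1rWnt1-/- replicates 3 and 5 were 2.07 and 2.09. In a fit without these 3 libraries Apoa1 and Apoa2 no longer reached the level set for testing, Apoc3 differed by -0.19 with the conjugate (adjusted p = 0.833), and 0 members were called by limma in the 3 contrasts of that line.

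**Figure D4:**
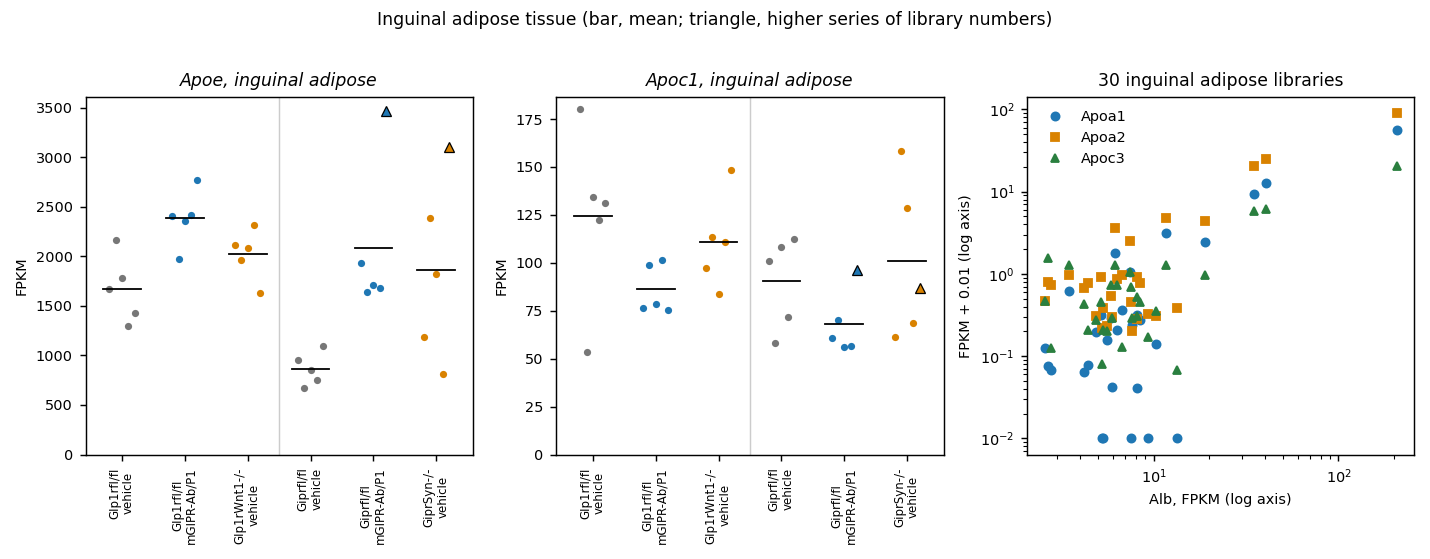
FPKM of Apoe and Apoc1 in each adipose library by group, with group means as lines, and FPKM of Apoa1, Apoa2 and Apoc3 against that of the hepatocyte marker Alb in the adipose libraries, on logarithmic axes. The Giprfl/fl conjugate libraries lie above the vehicle libraries in Apoe, and the highest Apoa1, Apoa2 and Apoc3 values lie in the library with the most Alb.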

How the data were processed

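Poly(A) RNA of liver and inguinal adipose tissue was sequenced from stranded libraries, per the labels' protocols. The deposited values are FPKM that the authors computed with RSEM, per the submitters' processing notes. Aligner, genome build, annotation and RSEM version remain not given in the sources used here. The tables hold no counts, so no counting error was derived, and a depth estimated from the low values serves only to compare libraries.

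Each of the 4 tables was fitted on log2(FPKM + 1) with 3 groups in limma 3.58.1 (R 4.3.3), with a mean-variance trend, over genes at 1 FPKM or more in at least 5 of 15 libraries, and p-values were two-sided and adjusted over all genes tested. Fold changes are on the log2(FPKM + 1) scale, which understates changes of low genes. Differences between lines were fitted over the 30 libraries of a tissue. Errors of fold changes are SE, and errors of FPKM are SD. P-values of limma rest on the spread between libraries within groups. That spread is pooled over all groups of a fit and drawn toward that of genes of like level. Marker scores, the mean log2(FPKM + 1) of a list, were compared by exact permutation. Scripts used Python 3.11.15, numpy 2.4.6, pandas 2.3.3, scipy 1.17.1 and matplotlib 3.10.9, and the fit was tested on simulated data.

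The members and lists were chosen with earlier results of these data known. Named were all 10 members, up to 4 called genes with the largest change per list and contrast, Creb3l3, Hnf4a and Ppara, Glp1r and Gipr, and the 5 genes most like Apoa4, Apoa1, Apob and Mttp; some genes that these rules name are not reported here. Alternatives were a pseudocount of 0.1, no filter, a filter at 5 FPKM, 3 rescalings, a replicate block, a fit of 2 groups, robust empirical Bayes, array weights, each library left out, the livers and adipose libraries of the higher number series left out, and terms for depth and for the pancreas score. The number series as a term, the fit without adipose libraries with a hepatocyte score above 1.5 and the counts over related genes were chosen after seeing the data.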

Additional observations from a re-analysis of the deposited data

Results flagged for a closer look

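Among 87 sets of 5 values, each 1 tested member in 1 group, 7 held 1 value far from the other 4, where chance gives about 1 in 20. The sets of a group share their libraries and are not independent, and 4 of the 7 lie in 1 library. In liver, Apoc1 was 8700 FPKM in Giprfl/fl vehicle replicate 2, against 6381 to 7053 in the other 4. Apoe was 18913 FPKM in Giprfl/fl vehicle replicate 5, a library of the higher number series, against 9537 to 11935 in the other 4. In adipose tissue those 4 lay in Glp1rfl/fl vehicle replicate 1, the library with the highest hepatocyte score: Apoa1 at 56.0 FPKM (0.0579 to 3.17 in the other 4), Apoa2 at 90.01 (0.731 to 4.82), Apoc3 at 20.3 (0.114 to 1.54) and Mttp at 1.58 (0.569 to 0.855). Apoe was 3468 FPKM in Giprfl/fl mGIPR-Ab/P1 adipose replicate 5, also of the higher series, against 1637 to 1929.

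One effect differed between groups. The change of Apoa4 in the GiprSyn-/- livers against that in the Glp1rWnt1-/- livers was -2.91 on the log2 scale (limma interaction contrast, adjusted p = 0.0095).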

How the results depend on the processing

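No member's called change turned its direction in any alternative. The direction of a related gene turned once, in Usf1 with the conjugate in the Glp1r line with estimated depth as a term, where it was not called. The cause of a change in a count was not tested.

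Members called in liver were 3 with the conjugate in the Glp1r line, but 0 with estimated depth and 0 with the pancreas score as a term, and 4 with array weights and under median-of-ratios scaling, Mttp being added. In the GiprSyn-/- contrast they were 4, but 2 under median-of-ratios scaling, 3 with no filter and 3 after quantile normalization, and 6 with array weights and 5 in a fit of the 2 groups only, Apoa5 being added in both and Apoe with the weights. Conjugate against knockout in the Glp1r line gave 2, but 0 with depth and 0 in a fit of the 2 groups only, and 1 with no filter, with the pancreas score and with robust empirical Bayes. Apob was added there with array weights, a filter at 5 FPKM, median-of-ratios scaling and quantile normalization. Depth and the conjugate cannot be told apart in the Glp1r livers, so the counts with depth as a term decide nothing there. The same contrast in the Gipr line gave 0, but 1 with array weights and 1 after rescaling to a common sum. The difference between the knockouts gave 1, but 2 with array weights and 2 with the pancreas score.

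In adipose tissue the count was 1 with the conjugate in the Gipr line, but 2 with array weights, 0 under median-of-ratios scaling and 0 with no filter. For the GiprSyn-/- contrast it was 0, but 1 with array weights. For the conjugate and the knockout in the Glp1r line it was 0, but 2 and 1 with array weights.

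Leaving out 1 library in turn, liver counts ran from 3 to 3 and from 0 to 0 for the conjugate and the knockout in the Glp1r line, from 2 to 3 and from 2 to 4 in the Gipr line, from 1 to 2 and from 0 to 1 for conjugate against knockout, and from 1 to 1 and 0 to 0 for the differences between knockouts and between conjugates. Adipose counts ran from 0 to 2 for the conjugate in the Glp1r line and from 0 to 1 for both contrasts of the Gipr line, and stayed 0 in the other 5 contrasts. The Apoa4 changes ran from -2.22 to -1.80, -2.77 to -2.26 and -3.62 to -3.10 for the conjugate in the Glp1r line, the conjugate in the Gipr line and the GiprSyn-/- livers.

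Related genes called were 16 with the conjugate in the Glp1r line, but 0 with depth, which went with the conjugate there, 7 with no filter and 9 with the pancreas score, and 8 to 18 without 1 library. With the conjugate in the Gipr line they were 4, but 15 with array weights, 7 with the number series as a term, 7 without that series, 2 in a fit of the 2 groups only and 9 with the pancreas score, and 2 to 11 without 1 library. In the GiprSyn-/- livers they were 17, but 33 with array weights, 25 with each library rescaled to a common sum and 22 in a fit of the 2 groups only. They were 10 under median-of-ratios scaling and 11 after quantile normalization, and 10 to 20 without 1 library. In the Glp1rWnt1-/- livers they were 0, and 0 to 1 without 1 library.

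Whether the replicate numbers pair the samples was read from the deviations of the libraries from their group means. Of 15 same-numbered pairs, 5, 6, 6 and 11 had deviations correlated over 0.1 in the liver Glp1r, liver Gipr, adipose Glp1r and adipose Gipr tables. In the same order 6, 1, 4 and 8 of 15 libraries were closest to their own number, and the median correlations were 0.026, -0.112, -0.037 and 0.287. A pairing was not shown in the liver tables or the adipose Glp1r table, and it was not settled in the adipose Gipr table. With a replicate block 4 members were called with the conjugate in the Glp1r livers, Mttp being added (adjusted p = 0.033), and 1 in the GiprSyn-/- adipose contrast, where Apoe was 0.97 (adjusted p = 0.0259). The block left the counts of the other contrasts as they were.

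Depth in these tables is an estimate, so no limit of detection was derived for the members at low levels in adipose tissue.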
